A study of Mus musculus with 2 samples.

Results

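The replication-dependent histone genes are 67 of the 31053 rows of the gene table, chosen by symbols that start with Hist1h, Hist2h, Hist3h or Hist4h. Of these, 60 had 50 or more unique molecular identifiers (UMIs) over both libraries in the cells kept after filtering, and are described here. Each UMI stands for 1 captured RNA molecule. The measured genes are 5 of 6 for the linker histone H1, 15 of 18 for H2A, 16 of 18 for H2B, 11 of 12 for H3 and 13 of 13 for H4. In the kept cells the other 7 had 49 UMIs (Hist1h2ao), 25 (Hist1h3h), 6 (Hist1h1t), 1 (Hist1h2bq), 1 (Hist2h2aa2) or 0 (Hist1h2aa and Hist1h2ba). Over all barcodes, kept or not, Hist1h2ao had 24 UMIs in the wild-type and 26 in the knock-in library. In the mm10 annotation 54 of the genes lie in the Hist1 cluster on chromosome 13, 10 in Hist2 on chromosome 3, 2 in Hist3 on chromosome 11 and 1 in Hist4 on chromosome 6.

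The cells were Lin- Kit+ cells, that is, bone marrow progenitors sorted for the receptor Kit and against markers of mature lineages. One library came from GATA-1 wild-type mice and one from mice that carry a GATA-1 mutation named 2RA, knocked into the gene. Strain, age and the number of animals are not given in the sources used here, and no treatment is named for either library. GATA-1 is the transcription factor that drives erythroid and megakaryocyte gene programmes. With 1 library per genotype no difference has a replicate check, so no p-value is given. Intervals are 95% intervals for counting error only, and a difference between the libraries cannot be told apart from a difference between the genotypes.

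After filtering, the wild-type library held 5490 cells with a median of 9624 UMIs, and the knock-in library held 5492 cells with a median of 5279 UMIs. Levels are CPM, the UMIs of a gene scaled to a fixed total of UMIs of the same cells. Cells were clustered without the histone and cell cycle genes. Clusters were named from marker genes into 7 classes: erythroid-like, megakaryocyte-like, basophil and mast-like, stem and multipotent-like, lymphoid-primed-like, neutrophil progenitor-like and monocyte progenitor-like. The word "like" is dropped below. The erythroid class held 1766 wild-type and 1771 knock-in cells, but different clusters held most of them in each library (clusters 4 and 8 in the wild type, 5 and 7 in the knock-in). Its marker Car1 stood at 3391 CPM in the wild-type and 3166 in the knock-in cells, and at most at 127 in another class. Gata1 in the erythroid class stood at 150.5 and 144 CPM, which does not check the mutation. A further 549 wild-type and 1460 knock-in cells stayed unnamed. Each library's files share 10 barcodes with the other's, of which 5 were kept in both.

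Replication-dependent histone genes supply the core histones H2A, H2B, H3 and H4 and the linker H1 that package newly made DNA, and their mRNAs accumulate in S phase. Most have no intron, and their mRNAs end just past a conserved stem-loop instead of in a poly(A) tail. The stem-loop is bound by the stem-loop binding protein Slbp, which takes part in their processing, export, translation and decay. Some of these genes also give polyadenylated mRNAs that run past the stem-loop. Libraries of this kind prime cDNA from runs of A, so the level of a histone gene here is the level of those molecules that could be captured in that way.

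The stem-loop, 16 bases long, was found in an annotated transcript of 46 of the 67 genes. Counted only in the last 300 bases of coding transcripts, it was found in 28 of the genes and in 2 coding genes outside the set, which is 0.00916% of those. The sequences below are shown because Hist1h2ap and Hist1h2ae, which weigh most in the difference between the libraries, have the most A before the stem-loop, and the others serve to compare. Hist1h1b, the member with the most UMIs in the knock-in library, has no stem-loop in its annotated transcript. Each gives 14 bases before the stem-loop in lower case and the stem-loop in capitals, 5′ to 3′, from the annotated transcripts of the GRCm38 (mm10) build.
Hist1h2ap: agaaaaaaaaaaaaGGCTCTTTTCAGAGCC
Hist1h2ao: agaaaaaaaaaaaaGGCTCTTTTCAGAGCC
Hist1h2ae: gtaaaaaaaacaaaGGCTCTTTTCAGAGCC
Hist1h2ab: ttaaccaaaacaaaGGCTCTTTTCAGAGCC
Hist1h2ac: acttcaaacccaaaGGCTCTTTTCAGAGCC
Hist1h1c: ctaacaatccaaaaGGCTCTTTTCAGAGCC
Hist1h1e: cccaacaacccaaaGGCTCTTTTCAGAGCC
Hist1h3c: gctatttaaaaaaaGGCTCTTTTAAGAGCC
Hist1h4h: cctacaaaaccaaaGGCCCTTTTCAGGGCC
Hist1h4m: ctttctcaactaaaGGCCCTTTTCAGGGCC
Hist1h4n: ctttctcaactaaaGGCCCTTTTCAGGGCC
Hist1h4f: gcttctttctcaaaGGCCCTTTTCAGGGCC

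Hist1h2ap lies at chr13:21833026-21833507 on the minus strand, and its stem-loop starts 38 bases past the stop codon. Of its 14 bases before the stem-loop 13 are A, the highest count among the 43 measured genes with a stem-loop. Hist1h2ae, at chr13:23570517-23571220 on the minus strand, follows with 11, and the next highest count is 9. The median was 7 and the lowest, in Hist1h4f and Hist2h4, was 3. Hist1h2ap and Hist1h2ae also had the most UMIs of the H2A genes, with 45700 and 25631 in the wild-type library. Across the 43 genes the Spearman rank correlation of A count with UMIs was 0.59 in the wild-type and 0.54 in the knock-in library, as a description of genes that share their libraries and, within a type, much of their sequence. The part of priming in these levels was not tested.

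Reads of many of these genes can be hard to tell apart. The last 360 bases of each gene's longest annotated transcript were cut into words of 60 bases and searched in the transcripts of all other genes. For 28 of the 60 measured genes over 50% of these words also occur in another gene, and for 5 of them every word does, Hist1h2ap among them. A total of 18 genes share no word in these last bases. Sequence further from the end, which in genes with a long annotated end includes the coding part, was not searched. Values of genes with shared words are uncertain as to which copy they came from. The words of Hist1h1e all occur in Hist1h2be or Gm11398, and the annotated span of Hist1h2be overlaps the 3′ end of Hist1h1e.

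Summed over all members, histone genes gave 2657 CPM in the wild-type library and 1673 in the knock-in library. H2A genes made up most of the gap: they stood at 1310 against 328 CPM, while H1 genes stood at 733 against 853. Hist1h2ap alone was 26.8% of histone UMIs in the wild-type library (exact binomial interval 26.5 to 27.0) and 2.94% in the knock-in (2.81 to 3.06). Hist1h2ae was 15.01% in the wild type and 6.67% in the knock-in. Hist1h1b, the linker histone H1.5 and the member with the most UMIs in the knock-in, went from 13.5% to 22.8%. UMIs of a 3′ library count molecules and not length, so these shares are shares of captured molecules.

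In the erythroid class the summed level was 2457 CPM for wild-type and 1491 for knock-in cells, which gives a log2 ratio (knock-in over wild type) of -0.72, with an interval of -0.74 to -0.70. The H2A sum was lower by far, at 1282 against 284 CPM (log2 -2.18, -2.21 to -2.14). The H2B and H4 sums were lower as well, at log2 -0.35 and -0.36, the H3 sum was level at -0.01 (-0.07 to 0.06), and the H1 sum was higher at 0.23 (0.21 to 0.26). When Hist1h2ap and Hist1h2ae, a pair chosen after their values were seen, were left out, the remaining sum was 1326 CPM for wild-type and 1335 for knock-in cells, with a log2 ratio near 0 at 0.01 (-0.01 to 0.03). The pair was picked for its low ratios, and the remaining members went both ways, so a net sum near 0 does not mean that each of them was level.

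The summed level was lower in the knock-in in all 7 classes. The log2 ratio was -0.96 in the megakaryocyte, -0.65 in the stem and multipotent, -0.58 in the neutrophil, -0.49 in the monocyte, -0.49 in the lymphoid-primed and -0.24 in the basophil and mast class. Without Hist1h2ap and Hist1h2ae the megakaryocyte sum stayed lower at -0.33 (-0.39 to -0.27) and the stem sum at -0.11 (-0.16 to -0.07), the neutrophil interval spanned 0 (-0.11 to 0.02), and the sums were higher at 0.24 in the basophil and mast, 0.11 in the lymphoid-primed and 0.08 in the monocyte class. The H2A sum was lower in every class, by log2 ratios between -2.22 (megakaryocyte) and -1.36 (basophil and mast). The H1 sum ranged from -0.09 (megakaryocyte) to 0.55 (basophil and mast). Median UMIs per cell were lower in the knock-in library than in the wild type (5279 and 9624). With every cell thinned to 3000 UMIs the erythroid log2 ratio was -0.71.

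**Figure D1:**
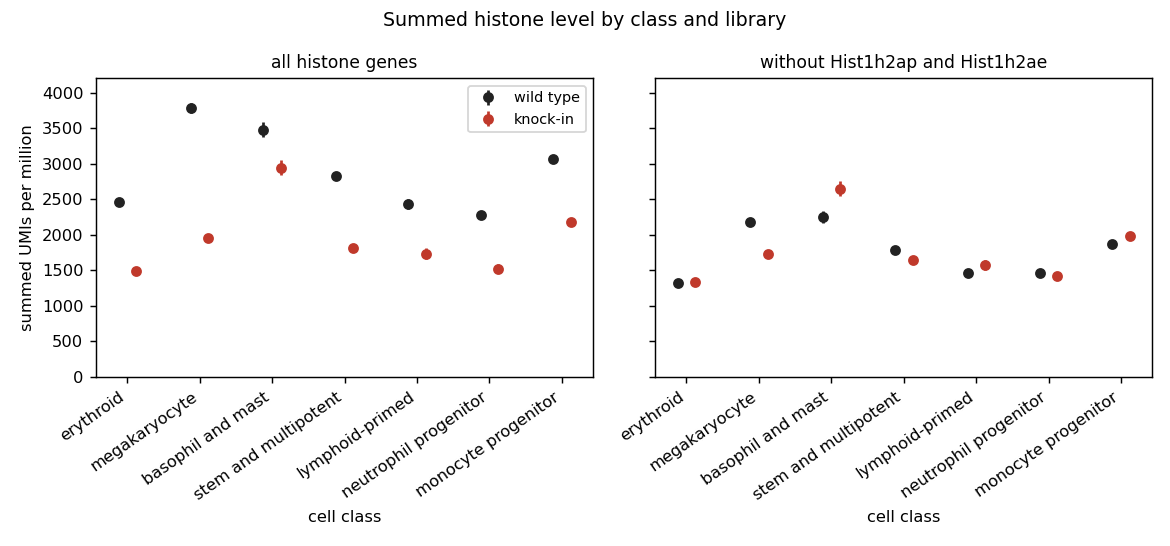
Summed histone CPM (vertical axis) in the 7 cell classes (horizontal axis) for the wild-type (black) and knock-in (red) library, with all histone genes on the left and without Hist1h2ap and Hist1h2ae on the right. Points are 1 library each and bars are 95% counting intervals. The erythroid points lie at 2457 and 1491 on the left and at 1326 and 1335 on the right.

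A gene was called past the fold where its CPM differed at least 1.5-fold between the libraries and it had at least 50 UMIs in the class. In the erythroid class 57 members were measured, of which 19 were lower in the knock-in (33.3%) and 5 were higher (8.77%). Among all 10438 genes measured there 4.86% were lower and 6.34% higher, so the members' share of lower calls stands above the background and their share of higher calls is near it. The median log2 ratio was -0.27 over the members and 0.03 over all genes. As many of these genes share sequence, their calls are not independent. The scatter of erythroid levels shows the H1 genes along the line of equal level, with Hist1h2ap and Hist1h2ae far below it.

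**Figure D2:**
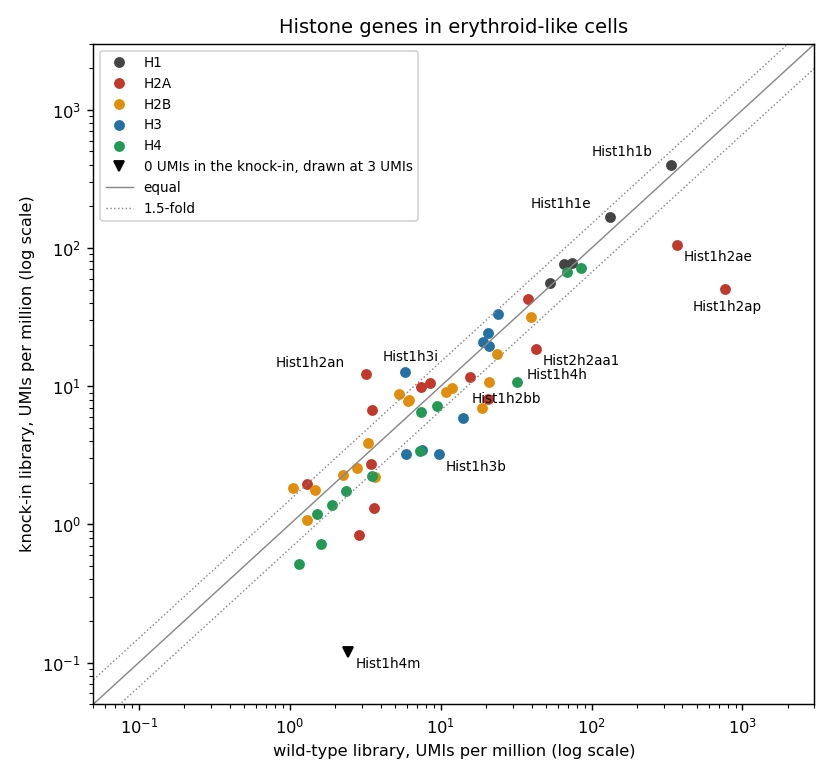
Level of each measured histone gene in the erythroid class in CPM, wild-type library on the horizontal and knock-in library on the vertical log axis, coloured by histone type, 1 library per axis. The solid line marks equal level and the dotted lines 1.5-fold. Hist1h2ap lies at 765 and 50.1, Hist1h2ae at 367 and 106, and Hist1h4m, with 0 knock-in UMIs, is drawn at 3 UMIs.

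Hist1h2ap, an H2A gene, stood in the erythroid class at 765 CPM in the wild type and 50.1 in the knock-in (log2 -3.93, -4.01 to -3.85). Its levels in the other wild-type classes were 981 in the megakaryocyte, 770.2 in the basophil and mast, 645 in the stem, 602 in the lymphoid-primed, 503 in the neutrophil and 697 in the monocyte class. The knock-in levels of the same classes were 61.0, 86.8, 42.0, 41.8, 34.0 and 58.1. No knock-in class reached the lowest wild-type class, and the log2 ratio lay between -4.01 and -3.15. Its near-identical copy Hist1h2ao, which has the same stem-loop window, held 24 UMIs in the kept wild-type cells and 25 in the kept knock-in cells.

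Hist1h2ae, the H2A gene with the next highest level, stood at 367 against 106 CPM in the erythroid class (log2 -1.79, -1.85 to -1.73). Over the 7 classes its wild-type level ranged from 309 (neutrophil) to 627 (megakaryocyte) and its knock-in level from 69.8 (neutrophil) to 205 (basophil and mast). The ranges did not overlap. Its partner Hist1h2bg, an H2B gene that starts 175 bases away on the other strand, stood at 3.32 against 3.89 CPM, a log2 ratio of 0.23 (-0.18 to 0.64).

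Of the other H2A genes, Hist2h2aa1 stood at 42.8 against 18.5 CPM in the erythroid class (log2 -1.20) and Hist1h2ab at 20.5 against 8.02 (-1.35). Hist1h2ad (-1.47) and Hist1h2ai (-1.78) were low in both libraries, with 120 and 95 wild-type UMIs in the class. Hist1h2an and Hist1h2af went the other way: Hist1h2an stood at 3.20 against 12.3 CPM (log2 1.94, 1.62 to 2.28) and Hist1h2af at 3.50 against 6.71 (0.94, 0.59 to 1.29). The H2A genes thus held both the lowest ratio among the genes with knock-in UMIs and the highest ratio of the set.

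Among the H2B genes Hist1h2bc and Hist1h2bj had the most UMIs, and neither was past the fold, at log2 -0.33 and -0.48. Hist1h2br was lower at 18.8 against 6.99 CPM (log2 -1.43, -1.68 to -1.18). Hist1h2bb was lower at 21.0 against 10.8 (-0.97), and Hist1h2bp at 3.65 against 2.18 (-0.74). Hist2h2bb (0.72, 0.43 to 1.01) and Hist1h2bl (0.79, 0.12 to 1.47) were higher. Hist1h2br shares its start region with Hist1h2ap, and both genes of that pair were lower.

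The H3 genes split. Hist1h3e and Hist1h3d, those with the most UMIs, had log2 ratios of 0.24 and -0.10. Hist1h3b (9.72 against 3.22 CPM, log2 -1.59), Hist1h3f (-1.25), Hist2h3b (-1.13) and Hist1h3g (-0.85) were lower. Hist1h3i was higher, at 5.76 against 12.7 CPM (1.14, 0.87 to 1.40).

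Of the H4 genes, Hist1h4i (84.5 against 71.7 CPM) and Hist1h4d (68.9 against 67.4) had the most UMIs and were not past the fold. Hist1h4h was lower, at 32.3 against 10.6 CPM (log2 -1.60, -1.80 to -1.41). Hist1h4k (-1.16), Hist1h4b (-1.15), Hist1h4a (-1.11) and Hist2h4 (-0.65) were lower too, with 241 wild-type UMIs or fewer each in the class. Hist1h4m had 81 UMIs in the wild-type class and 0 in the knock-in. With that 0 put at a floor of 3 UMIs it was 20.5-fold lower, a value set by the floor and not a bound. Over all kept cells Hist1h4m had 178 and 0, with the upper end of the interval at log2 -5.02. Hist1h4n, which has the same stem-loop window, held 204 and 106 UMIs over all kept cells.

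The H1 genes were not past the fold in the erythroid class. Hist1h1b stood at 337 against 399 CPM (log2 0.24, 0.21 to 0.28) and Hist1h1e, the linker histone H1.4, at 133 against 168 (0.33, 0.27 to 0.39). Hist1h1a, Hist1h1c and Hist1h1d had ratios between 0.08 and 0.24.

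The calls can be set beside the shared sequence. Among the 26 measured members with over 50% of the 60-base words of their last 360 bases shared, 14 were lower and 4 higher in the erythroid class. Of the 17 with no shared word in those bases, 1 was lower, Hist2h4, and none was higher, with log2 ratios from -0.65 to 0.40. The remaining measured members share some words, up to 50%. Among these Hist1h2ae, Hist1h2br, Hist1h2bp and Hist1h4a were lower and Hist2h2bb was higher. Of all genes measured in the class 4.86% were lower and 6.34% higher. This split was made after values were seen, and the rest of the transcripts was not compared. In genes with short annotated transcripts, such as Hist1h2an and Hist1h2ai with 393 bases each, the last 360 bases are nearly the whole transcript. The part that the assignment of shared reads has in the differences was not tested.

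In the other classes, too, the members' share of lower calls stood above the background. Lower in the knock-in were 16 of 35 measured members in the megakaryocyte class (background 5.25%), 8 of 24 in the basophil and mast (5.89%), 15 of 40 in the stem (4.5%), 7 of 22 in the lymphoid-primed (5.84%), 13 of 35 in the neutrophil (4.65%) and 17 of 48 in the monocyte class (5.01%). Higher were 1 (4.48%), 6 (7.4%), 2 (3.21%), 3 (4.2%), 2 (9.68%) and 4 (4.07%) in the same order. The shares higher were thus above the background in the basophil and mast, lymphoid-primed, monocyte and, slightly, stem classes, and below it in the megakaryocyte and neutrophil classes. In the neutrophil class the median log2 ratio was -0.25 over the members and 0.11 over all genes, so the members there lie lower against the other genes than their ratios alone show.

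Across classes, 41 members could be measured in at least 3 classes. Of these, 11 were at least 1.5-fold lower in the knock-in in every class that measured them, and 1 was higher in every such class. Among all 8846 genes measured in at least 3 classes, 1.09% were lower and 0.452% higher by the same rule. No member was past the fold in opposite directions in any pair of classes.

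The 11 genes that were lower in every class were Hist1h2ap, Hist1h2ae, Hist2h2aa1, Hist1h2br, Hist1h2bb and Hist1h4h, each measured in all 7 classes, and Hist1h2ab (6 classes), Hist1h3f and Hist2h3b (5 each), Hist1h3b and Hist1h2bp (3 each). They hold members of all core types and no H1 gene. Hist1h4h ranged from -2.05 to -1.15 in log2 ratio, Hist2h2aa1 from -2.02 to -1.01, Hist1h2br from -2.16 to -0.83 and Hist1h2bb from -2.05 to -0.97. Of the 11, 8 have over 50% of the words of their last 360 bases in other genes.

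The gene higher in every class was Hist1h2an, measured in 3 classes, with log2 ratios from 1.09 to 2.17. No member was higher in every class with doublets kept, with cells thinned to 3000 UMIs, or within G1, S or G2/M cells alone. In these runs fewer members could be measured in at least 3 classes, 38, 23, 10, 23 and 26 in that order. The levels of Hist1h2an in the monocyte class were 3.33 and 14.96 CPM, and in the megakaryocyte class 6.72 and 14.3. Hist1h3i was above 0 in all 4 classes that measured it and past the fold in 2 of them. Of the 41 genes, 7 were not past the fold in any class.

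**Figure D3:**
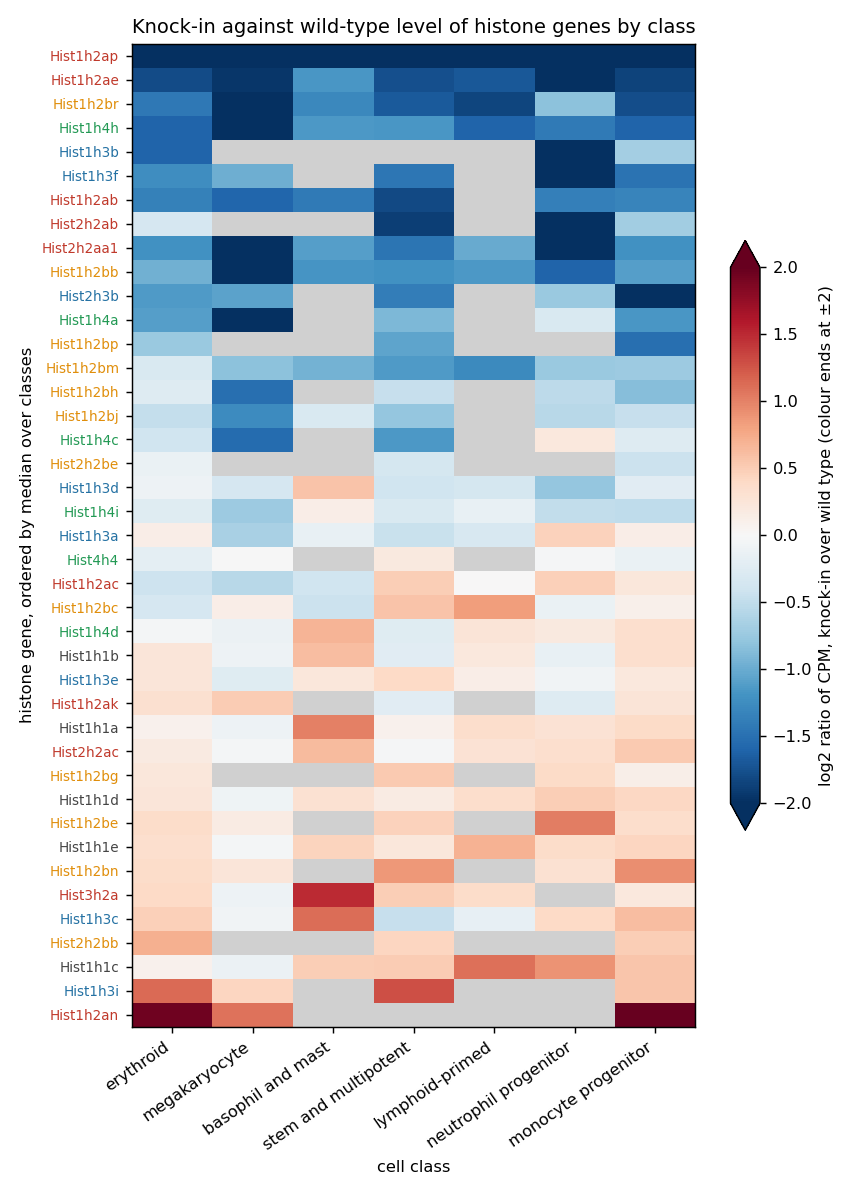
Log2 ratio of CPM, knock-in over wild type, for the 41 histone genes (rows, names coloured by histone type) measured in at least 3 of the 7 classes (columns). Blue is lower and red higher in the knock-in, colour ends at 2 in either direction, and grey marks fewer than 50 UMIs. Hist1h2ap (-4.01 to -3.15) is at the top and Hist1h2an (1.09 to 2.17) at the bottom.

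Genes that encode other histones or act on histones and their mRNAs had few calls in the erythroid class. Of the replication-independent variants, histones that are put into chromatin outside S phase, 10 of 11 were measured and 0 were past the fold in either direction, with H2afz at 2106 and 1999 CPM, H3f3a at 1288 and 1279 and H3f3b at 1245 and 1224. Of 18 genes of histone gene transcription and mRNA processing 17 were measured and 1 was lower. Ccne1, the cyclin E1 that acts at entry into S phase, stood at 102 against 56.9 CPM (log2 -0.84, -0.93 to -0.75). Slbp stood at 201 against 175 (-0.20), Cpsf2, a subunit of the cleavage machinery, at 157 against 166, and Srrt, which acts in RNA processing with the cap-binding complex, at 136 against 149. Of the histone chaperones 16 of 16 were measured and 0 were past the fold, with Nap1l1 at 605 against 645, Nasp at 301 against 302 and Ssrp1 at 293 against 303.

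Of the 39 S phase genes used to call phases 0 were past the fold in the erythroid class, and they summed to 3529 CPM in wild-type and 3456 CPM in knock-in cells. In the megakaryocyte class, where the histone sum was lowest relative to the wild type, the S phase sum was 3306 against 3555, and the sum of 53 G2 and M phase genes was 8248 against 6904. In the stem class the G2 and M phase sum was 5815 against 4609. The part of cell cycle makeup in the class sums was not tested beyond the comparison within called phases.

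Cells were called G1, S or G2/M from those lists, which hold no histone gene, after thinning each cell to 3000 UMIs. Shallower cells were left out, 317 in the wild type and 1166 in the knock-in. In the wild-type library the summed histone level was 1501 CPM in 1089 G1 cells, 2388 in 2399 S cells and 3222 in 1685 G2/M cells. In the knock-in it was 1302 in 1182 G1 cells, 1547 in 1998 S cells and 1956 in 1146 G2/M cells. The S over G1 log2 ratio was 0.67 (0.64 to 0.70) in the wild type and 0.25 (0.21 to 0.29) in the knock-in. These sums pool the cells of all classes, and class makeup differed by phase. In the wild type the erythroid class gave 137 of the G1 and 820 of the S cells, and the stem class 296 and 258. Within the erythroid class the level was 1263 CPM in G1, 2456 in S and 2536 in G2/M cells of the wild type. In the knock-in it was 866, 1505 and 1538. In both libraries the level was highest in cells called G2/M.

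A called phase is a range of a score and not a state: of the S cells 441 in the wild type and 383 in the knock-in lay within 0.05 score units of another call. Cells were also ordered by their thinned UMIs of the S phase genes alone and put in 5 bins. From the lowest to the highest bin, the histone level was 2173, 2417, 2612, 2874 and 2894 CPM in the wild type, and 1497, 1610, 1476, 1689 and 1957 in the knock-in. The lowest bin held 30.1% cells called G2/M in the wild type and 18.9% in the knock-in. Highest over lowest bin gave log2 ratios of 0.41 and 0.39, close to each other, unlike the ratios from phase calls.

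Types differed in their S over G1 ratio, taken over all classes together. The S over G1 log2 ratio of H2A genes was 1.15 (1.10 to 1.20) in the wild type and 0.21 (0.12 to 0.30) in the knock-in. For H1 genes it was 0.47 and 0.42. For H2B genes it was -0.05 in the wild type and -0.34 in the knock-in, and for H3 and H4 genes it lay between 0.12 and 0.33 in both. The H2A value is a sum in which Hist1h2ap and Hist1h2ae weigh most.

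Of 45 members measured in S and G1 cells of both libraries, 11 were at least 2-fold higher in S in both, against 4.46% of all 10251 genes measured in that way, and 3 were at least 2-fold lower, against 6.29%. The share of members that were higher, 11 of 45, stands above the background, and the share lower is near it. The 11 were Hist1h1a, Hist1h1b, Hist1h2ab, Hist1h2af, Hist1h2an, Hist1h2ap, Hist1h2bj, Hist1h2bm, Hist1h3b, Hist1h3c and Hist1h3g. Over the 45 members the median S over G1 log2 ratio was 0.28 in the wild type and 0.04 in the knock-in, beside -0.10 and -0.06 over all genes. By highest against lowest bin of S phase genes, 2 of 40 measured members were at least 2-fold higher in both libraries, beside 3.22% of all genes. These were Hist1h1a and Hist1h1b, and by the bins the members' share is near the background. The S over G1 rule is not specific to S phase genes: 34 of the 39 S phase genes and 35 of the 53 G2 and M phase genes passed it. Over single cells the Spearman rank correlation of histone UMIs with the S phase list was 0.10 in the wild type and 0.04 in the knock-in. With the G2 and M phase list it was 0.44 and 0.27.

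The highest S over G1 ratios in the wild type belonged to H3 and H2A genes at low level. Hist1h3g had 4 UMIs in G1 cells and 138 in S cells (log2 2.83, 1.44 to 4.72). Hist1h3b stood at 1.298 in G1 and 8.80 in S cells (2.76, 1.76 to 3.99), and Hist1h2ab at 2.27 and 15.2 (2.74, 1.98 to 3.62). In the knock-in their ratios were 3.997, 2.48 and 1.86, from 1, 3 and 9 G1 UMIs, with intervals that overlap the wild-type ones. Hist1h3c had 2.59 and 3.40.

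Among genes at high level, Hist1h1b stood at 82.3 CPM in G1, 355 in S and 430.03 in G2/M cells of the wild type, and at 94.1, 417 and 479 in the knock-in. Its S over G1 log2 ratio was 2.11 (1.98 to 2.24) and 2.15 (2.02 to 2.28), with intervals that overlap. Hist1h2ap stood at 201, 633 and 922 in the wild type and at 21.4, 46.0 and 65.6 in the knock-in. Its ratio was 1.66 (1.57 to 1.74) in the wild type and 1.11 (0.83 to 1.40) in the knock-in. The gap between the libraries was thus present in each of the called phases, G1 cells included. Hist1h2ae had 1.34 and 0.95.

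The lowest S over G1 ratios belonged to Hist3h2a (-1.47, -1.82 to -1.11), Hist3h2ba (-1.44, -2.19 to -0.66) and Hist1h2ac (-1.35, -1.51 to -1.19) in the wild type. In the knock-in Hist3h2a had -1.47 and Hist1h2ac -1.72, and Hist3h2ba had 24 G1 and 21 S UMIs, too few by the rule. Hist1h1c, the linker histone H1.2, was lower in S as well, with 109 CPM in G1 and 54.0 in S cells of the wild type (-1.02) and 142 and 69.6 in the knock-in (-1.03). Over the 5 bins of S phase genes, lowest first, Hist1h2ac stood at 86.4, 60.6, 42.4, 31.3 and 22.0 CPM in the wild type, and at 92.6 in the lowest and 18.6 in the highest bin of the knock-in. Hist1h1e had ratios of -0.41 and -0.34. These ratios and bins pool the cells of all classes, so phase and class makeup cannot be told apart in them. In the wild type Hist1h2ac stood at 15.6 CPM in the erythroid and 79.3 in the stem class. Hist3h2a and Hist3h2ba were highest there in the lymphoid-primed class, followed by the stem class.

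**Figure D4:**
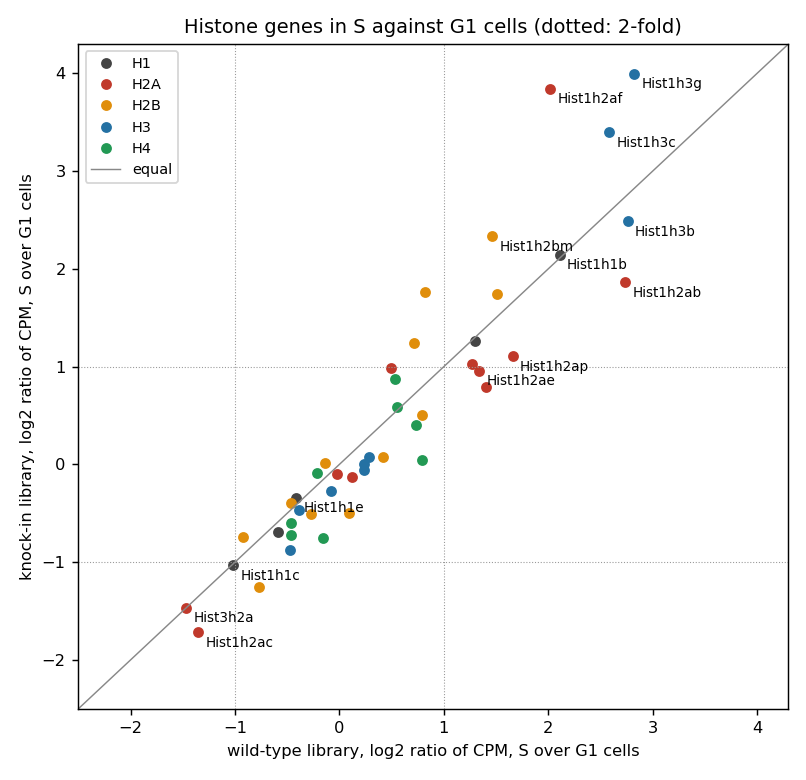
S over G1 log2 ratio of CPM for the 45 histone genes measured in both libraries, wild type on the horizontal and knock-in on the vertical axis, coloured by histone type. The line marks equal ratios and the dotted lines 2-fold. Hist1h3g (2.83 and 3.997) is at the upper right and Hist1h2ac (-1.35 and -1.72) and Hist3h2a (-1.47 and -1.47) at the lower left.

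In G2/M against G1 cells 17 of 49 measured members were at least 2-fold higher in both libraries, beside 5.45% of all genes. Of the 45 members above, 38 had a higher level in G2/M than in S cells in both libraries. Hist1h1a was among the exceptions in the wild type, at 85.0 CPM in S and 82.9 in G2/M cells. How many of all genes were higher in G2/M than in S cells was not counted. The 38 are thus not shown to be particular to histone genes.

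The annotated end of the transcript was set beside both measures. Measured members were put in 3 groups, after values were seen: 25 whose longest annotated transcript ends within 300 bases past the stem-loop, 18 whose transcript runs over 300 bases past it, and 17 with no stem-loop in an annotated transcript. In the erythroid class 13 of 25 of the first group were lower and 0 higher, with a median log2 ratio of -0.74. Of the second group 2 of 16 were lower and 0 higher, with a median of -0.15. Of the third, 4 of 16 were lower and 5 higher. The median S over G1 log2 ratio in the wild type was 1.34 in the first group, -0.27 in the second and 0.28 in the third, and 7 of 17, 0 of 15 and 4 of 13 were at least 2-fold higher in S in both libraries. The S over G1 ratios pool the cells of all classes, so phase and class makeup cannot be told apart in them. Hist1h1c, Hist1h1e, Hist1h2ac and Hist3h2a are in the second group, with annotated ends 840, 1153, 2010 and 1643 bases past the stem-loop.

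**Figure D5:**
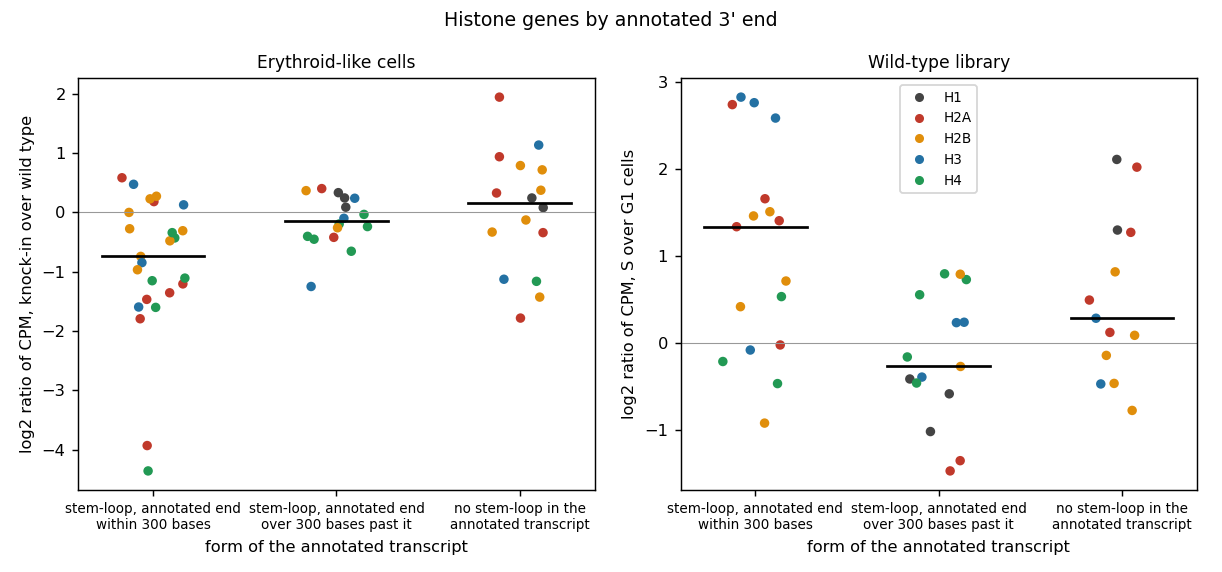
Histone genes by the annotated 3′ end of their transcript (horizontal axis). The left panel gives the log2 ratio of CPM, knock-in over wild type, in the erythroid class, and the right panel the S over G1 log2 ratio in the wild-type library. Points are genes, coloured by type, and bars are medians, at -0.74, -0.15 and 0.16 on the left and 1.34, -0.27 and 0.28 on the right. Hist1h4m, lowest on the left, is drawn against a floor of 3 UMIs.

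Among lineages, the summed level in the wild type was lowest in the neutrophil class, at 2276 CPM, followed by 2432 in the lymphoid-primed, 2457 in the erythroid and 2832 in the stem class, and it was highest, at 3784, in the megakaryocyte class. Of phased wild-type cells 8.02% were called G1 in the erythroid class (exact binomial interval 6.78 to 9.41), beside 6.71% in the monocyte, 9.17% in the neutrophil and 43.1% in the stem class. In the knock-in the highest was 2940 in the basophil and mast class and the lowest 1491 in the erythroid class, with 1520.2 in the neutrophil class close to it.

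Within phases the classes lay furthest apart in G2/M cells. In the wild type the erythroid class stood at 2536 CPM, the neutrophil at 3063, the monocyte at 3961, the lymphoid-primed at 4713, the stem at 5783, the megakaryocyte at 5911 and the basophil and mast class at 6165. In the knock-in the same order ran 1538, 1908, 2811, 3089, 3351, 3518 and 4971. The class order of these point values was the same in both libraries, but intervals of some neighbouring classes overlap. In the wild type those of the stem (5649 to 5918) and megakaryocyte class (5767 to 6058) do. In the knock-in those of the lymphoid-primed (2872 to 3318) and stem class (3204 to 3503) do. Some groups are small, with 32 lymphoid-primed cells in the knock-in. The basophil and mast class had 34 G2/M cells in the wild type and 42 in the knock-in. In S cells the range was narrower, from 1741 (lymphoid-primed) to 2653 (megakaryocyte) in the wild type and from 1382 (lymphoid-primed) to 2400.2 (basophil and mast) in the knock-in. In G1 cells the stem class of the knock-in was above that of the wild type, at 1496 against 1318.

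The basophil and mast class was the highest class for 26 of the 60 measured genes in the wild type and 43 in the knock-in, 19 of them in both. The erythroid class was the highest for 0 genes and the lowest for 20 in the wild type and 18 in the knock-in. The neutrophil class was the lowest for 17 and 18 genes and the lymphoid-primed class for 12 and 11. These counts set no minimum of UMIs per class, and the same count over all genes was not made. They are thus not shown to be particular to histone genes. Hist1h4m, at 0 in every knock-in class, was still counted, as highest in the monocyte and lowest in the erythroid class. The basophil and mast class is small (181 and 216 cells), and its marker Prss34 differed between the libraries, at 1076 and 105 CPM. Hist1h2ac, an H2A gene, had 15.6 CPM in the erythroid class of the wild type and between 49.3 (lymphoid-primed) and 147 (basophil and mast) in the others. In the knock-in it stood at 11.6 in the erythroid class and at 40.2 to 112 in the others. The erythroid class was thus below every other class in both libraries. Hist1h1c was lowest in the erythroid class of the knock-in (56.0 CPM) and highest in the basophil and mast class (177), and it was past the fold between the libraries in the lymphoid-primed (1.11) and neutrophil (0.89) classes.

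Promoter windows of 250 bases before to 50 after the start were found in RefSeq for 62 of the 67 genes (GRCm38.p6). The letters CCAAT, searched on both strands, were in 6 of 6 H1, 18 of 18 H2A, 16 of 16 H2B, 10 of 10 H3 and 3 of 12 H4 windows, beside 37.9% of 27025 promoters. The octamer ATTTGCAT, known from H2B promoters, was in 7 H2A and 6 H2B windows and in 0 of the H1, H3 and H4 windows, beside 1.75% of all. The letters TATAAA were in 4 H1, 11 H2A, 8 H2B, 4 H3 and 8 H4 windows, beside 14.2%. Windows of neighbouring H2A and H2B genes on opposite strands can overlap, so the same site can count for both types. Hist1h2ae and Hist1h2bg hold the same octamer in this way, as do Hist1h2ah and Hist1h2bk. The counts are thus of windows and not of separate sites. The windows of Hist1h2ap and of Hist1h2bg are shown because they cover most (Hist1h2ap) or all (Hist1h2bg) of the space between an H2A and an H2B gene, a pair that was lower in both members and a pair of which only the H2A gene was. Capitals mark those letters on either strand.
Hist1h2ap, chr13:21833426-21833725, minus strand: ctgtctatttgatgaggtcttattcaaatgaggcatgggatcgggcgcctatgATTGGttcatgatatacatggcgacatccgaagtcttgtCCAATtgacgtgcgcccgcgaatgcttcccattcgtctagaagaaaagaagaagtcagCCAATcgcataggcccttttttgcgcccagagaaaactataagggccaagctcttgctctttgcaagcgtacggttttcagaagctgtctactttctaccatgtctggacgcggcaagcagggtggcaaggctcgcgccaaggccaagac
Hist1h2bg, chr13:23571150-23571449, plus strand: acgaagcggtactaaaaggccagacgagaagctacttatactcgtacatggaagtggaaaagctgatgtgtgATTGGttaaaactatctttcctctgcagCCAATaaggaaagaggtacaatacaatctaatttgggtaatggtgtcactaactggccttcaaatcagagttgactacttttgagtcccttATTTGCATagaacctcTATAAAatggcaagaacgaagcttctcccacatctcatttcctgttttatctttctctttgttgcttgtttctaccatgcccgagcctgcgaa

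In all, 12 pairs of an H2A and an H2B gene start on opposite strands within 305 bases of each other. In the erythroid class Hist1h2ap and Hist1h2br had log2 ratios of -3.93 and -1.43, and Hist1h2ac and Hist1h2bc of -0.42 and -0.33. Hist1h2an and Hist1h2bp, 242 bases apart, went in opposite directions, at 1.94 (1.62 to 2.28) and -0.74 (-1.23 to -0.27), as did Hist1h2ai (-1.78) and Hist1h2bl (0.79). Hist1h2ad was at -1.47 (-2.07 to -0.90) and its partner Hist1h2bf at 0.00 (-0.52 to 0.52). These pairs thus hold both like and unlike ratios, in counts that for most of these genes share sequence with other copies.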

How the data were processed

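The libraries of sorted cells, 1 per genotype, were analysed. Per the labels' protocols they were made with a 10x 3′ kit (v2), aiming at 6000 cells each. The deposited matrices hold UMI counts per gene and barcode made with Cell Ranger 3.1.0, per the file headers, on mm10, per the submitters' processing notes. How reads that match several genes were counted is not given in the sources used here. The wild-type file held 7471 barcodes and 70543211 UMIs, the knock-in 6640 and 48005467.

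Kept barcodes had 500 genes and 1000 UMIs or more, with mitochondrial UMIs at 10% or less (23.0% and 11.4% of barcodes were over that limit). Scrublet removed 145 wild-type doublets. In the knock-in it marked 4 cells, so the top 5% of scores (289 cells) were removed. Cells of the libraries were clustered jointly, with no correction between libraries, in scanpy 1.11.5 (2000 variable genes, 30 components, 15 neighbours, Leiden resolution 1). The score that names clusters was chosen after the clusters were seen: a class needed 3 markers, each in 10% of cells, and a lead of 1.3 over the next class. Levels are summed UMIs of a class as CPM. Ratios carry exact conditional binomial intervals, and shares Clopper-Pearson intervals. PCR and capture errors are not covered. Phases were called with scanpy from 39 S and 53 G2/M genes. Sequences come from GENCODE M21 and RefSeq tables of GRCm38.p6. The intervals were tested on counts drawn independently from 1 pooled erythroid profile. The intervals assume such draws, so the test does not cover variation between cells or libraries, or shared reads.

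The members and gene lists were chosen with earlier results of these data known. Named are the 2 members of each type with the most UMIs, members past the fold in the erythroid or in every class, and the 3 highest and 3 lowest S over G1 ratios. Of pathway lists the 3 genes with the most UMIs and any past the fold are named. Symplk and Tut7 of the processing list are not among the symbols. Hist1h1c, Hist1h3c, the members lower or higher in S in both libraries and partners in divergent pairs are named beyond that rule, chosen after their values were seen.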

Additional observations from a re-analysis of the deposited data

Results flagged for a closer look

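Barcodes that did not pass the cell filters or the doublet step, which no comparison above uses, also held histone UMIs. The 1981 such wild-type barcodes had 2201 histone CPM, and the 1148 knock-in barcodes had 1777. Both lie above the level that a count of 0 allows in them, 0.479 and 0.681 CPM at 3 UMIs. Hist1h2ap stood there at 524 and 51.7 CPM and Hist1h2ae at 285 and 99.8, so the gap between the libraries in these genes was also present in the barcodes left out.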

How the results depend on the processing

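No paired analysis was possible because each genotype has 1 library. Depth limits the genes with few UMIs, and no alternative replaces a second library. The erythroid sum (log2 -0.72) was -0.70 with doublets kept, -0.69 with the wild-type clusters used to place the knock-in, -0.75 with median-of-ratios scaling, -0.54 in G1 cells and -0.67 with clusters 2 and 10, which were unnamed, put in the class. The last was chosen after seeing the data, as were the values in G2M cells and without shared barcodes.

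The erythroid count of lower members (19) was 11 with thinning to 3000 UMIs and 5 in G1 cells, where 38 and 14 members could be measured. Of all genes 4.33% and 5.88% were lower in these runs. The count of higher members (5) was 0 of 14 in G1 cells and 2 of 57 at 2-fold, beside 5.59% and 2.21% of all genes. The count lower in every class (11 of 41 measured) was 7 of 23 with thinning, 2 of 10 in G1 cells, 3 of 23 in S cells and 5 of 41 at 2-fold. Over all genes the shares were 1.02%, 1.40%, 0.954% and 0.430% in the same order. Hist1h2ap stayed among the members lower in every class in every alternative run. The 1 member higher in every class was lost (0) with doublets kept, with thinning, and in G1, S or G2M cells. There 38, 23, 10, 23 and 26 members could be measured in at least 3 classes.

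The S over G1 sum was 0.41 in the wild type and 0.39 in the knock-in by highest against lowest of 5 bins of S list UMIs, 0.58 and 0.13 with thinning to 2000 UMIs, and 0.78 and 0.32 with median-of-ratios scaling. The count of members higher in S (11 of 45 measured) was 2 of 40 by these bins, Hist1h1a and Hist1h1b, beside 3.22% of all genes. Outside the erythroid class, 2 of 70 recomputed class sums changed sign, the stem sum (0.18) and the neutrophil sum (0.14), both in G1 cells. None of the 250 recomputed values of the 24 members past the fold in the erythroid class changed sign. These members were picked for their large differences in the same libraries, and the alternative runs reuse cells of those libraries. Members with too few UMIs in a run gave no value there. A change of sign was thus unlikely from the start, and its absence is no independent check of these differences.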
